A study of Mus musculus with 8 samples.

Results

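The cells described here are immature neutrophils of the mouse brain that carry transcripts of the secondary granules. They were chosen by measured values: a barcode with an assigned sample hashtag was a member when S100a8 and S100a9 made up at least 2% of its gene UMIs, Camp, Ltf and Ngp together at least 1%, and Elane, Mpo and Prtn3 together less than 1%. This gave 3835 members among 46314 assigned cells. From the same values, 820 cells were neutrophil precursors (Elane, Mpo and Prtn3 at 1% or more) and 1373 were mature neutrophils (S100a8 and S100a9 at 2% or more, both other sums below 1%). The study sorted CD45.2+ cells from perfused mouse brain parenchyma and sequenced 5' single-cell libraries, 1 for each of 8 conditions. The labels give the age of all mice as 16 weeks, where the study's methods give 3 months. WT mice were C57BL/6J. APP mice were APPNL-G-F, a knock-in line whose mutated App gene keeps its own promoter, which deposits amyloid beta. For each genotype, control mice drank water only, acute colitis mice drank 2% DSS, chronic colitis mice went through 3 cycles of DSS and water, and food allergy mice were sensitised to ovalbumin and then given it by mouth. An intravenous CD45 label given before perfusion, used to mark cells inside vessels, leaves no trace in the counts, so members in vessels and in tissue cannot be told apart here.

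Neutrophils arise from precursors that first pack the azurophil granules with elastase, myeloperoxidase and proteinase 3. They then enter the myelocyte and metamyelocyte stages, when C/EBP epsilon drives the genes of the secondary, or specific, granules: the cathelicidin Camp, lactotransferrin Ltf, the neutrophilic granule protein Ngp and the iron-scavenger carrier lipocalin 2 (Lcn2). Gelatinase granules, which hold MMP9, come later, and mature cells carry chemokine receptors and inflammatory mediators such as IL-1 beta. In steady state the secondary-granule stage is found mainly in bone marrow.

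The promoters of the 3 gate genes Camp, Ltf and Ngp and of Lcn2, the fourth marker of the stage, are shown because these genes define the members. Each stretch is the 250 bases before the RefSeq start site in GRCm38.p6, written 5' to 3' on the strand of the gene: chr2:32387740-32387989 on the minus strand for Lcn2, chr9:110419558-110419807 on the plus strand for Ngp, chr9:111019042-111019291 on the plus strand for Ltf and chr9:109849457-109849706 on the minus strand for Camp. Capitals mark matches to TTNNGCAA or its reverse complement TTGCNNAA, a short form of the C/EBP site, searched on both strands.
Lcn2: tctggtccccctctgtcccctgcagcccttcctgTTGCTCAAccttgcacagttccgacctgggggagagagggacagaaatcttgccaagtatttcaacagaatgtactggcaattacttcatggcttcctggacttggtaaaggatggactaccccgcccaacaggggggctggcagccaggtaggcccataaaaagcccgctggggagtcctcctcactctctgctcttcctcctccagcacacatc
Ngp: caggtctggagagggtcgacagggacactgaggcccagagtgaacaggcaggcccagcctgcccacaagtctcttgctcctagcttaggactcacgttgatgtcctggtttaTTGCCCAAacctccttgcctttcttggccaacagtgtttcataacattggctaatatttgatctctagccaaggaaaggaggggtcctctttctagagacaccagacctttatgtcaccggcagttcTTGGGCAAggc
Ltf: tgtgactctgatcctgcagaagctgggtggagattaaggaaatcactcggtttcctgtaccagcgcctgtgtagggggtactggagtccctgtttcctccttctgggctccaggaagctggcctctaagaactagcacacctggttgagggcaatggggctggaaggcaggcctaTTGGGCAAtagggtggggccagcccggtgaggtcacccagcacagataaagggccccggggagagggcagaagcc
Camp: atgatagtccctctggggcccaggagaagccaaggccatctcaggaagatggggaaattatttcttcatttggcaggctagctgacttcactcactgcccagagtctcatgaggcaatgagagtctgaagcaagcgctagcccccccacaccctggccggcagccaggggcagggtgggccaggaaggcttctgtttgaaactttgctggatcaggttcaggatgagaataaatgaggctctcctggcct
Lcn2 held 1 match, 216 bases before the start site, Ltf held 1 at 75 bases, Ngp held 2, the first at 138 bases, and Camp held none in this window. Of the 12 secondary granule genes listed for this work, 10 had a promoter in the RefSeq table, and 4 of those 10 (40.0%) held the motif, the fourth being Anxa1, against 3142 of 32851 promoters (9.56%) of the same length over all genes. A match is a description of letters and not a site of binding.

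The libraries held 26988646 to 56307389 UMIs. Members were deeper than other cells, with median depths of 5663 to 13192 UMIs by library against 2569 to 3641 outside the neutrophil gates, and they were shared unevenly: 74 in WT acute, 170 in WT control, 311 in APP control, 324 in APP chronic, 515 in WT chronic, 524 in APP allergy, 829 in WT allergy and 1088 in APP acute. Within a library, cells with the same top hashtag were taken as 1 hashtag group, giving 30 groups. Which animal a hashtag marked is not stated, and all groups of a condition share 1 library, so condition and library cannot be told apart and p-values measure only the spread between hashtag groups. Pairs of libraries shared 30 to 68 cell barcodes (median 48). In the WT control library, 13 genes with short transcripts, among them Rpl38, Rps28, Rpl37a, Tomm7 and Cox7c, summed to 1340 CPM in members against 4415 to 7265 in the other 7 libraries, and to 5845 against 13273 to 23322 in cells outside the neutrophil gates. The genes named were also called by edgeR in tests on members that include WT control, so their low sum in members is a description only. In the WT allergy library 74.7% of barcodes had an assigned hashtag, against 87.2% to 94.5% in the others, and 867 cells that met the neutrophil rule there had none.

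The hashtag groups also fell on 2 sides of a gap in an immediate-early sum (10 genes such as Fos, Junb and Egr1, which rise within minutes of a stimulus) measured in T cells: 14 groups lay at 747 to 1958 CPM and 16 at 3460 to 6584 CPM. Each library held groups on both sides. The low side held hashtags 4 and 5 of WT control, WT chronic, APP control and APP chronic, hashtags 6 and 7 of WT acute and APP allergy, and hashtag 7 of WT allergy and APP acute. Because this split is not a label of the study, it is used only to give values within each side.

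Of the 4 markers, Camp, Ltf and Ngp chose the members, so their levels describe the gate, and Lcn2 was not used by it. In each library, 95.3% to 100% of members held a UMI of Camp, 94.4% to 99.9% of Ltf, 99.8% to 100% of Ngp and 99.6% to 100% of Lcn2. Camp, Ltf and Ngp made up a median of 6.34% to 9.90% of a member's UMIs, and S100a8 and S100a9 17.9% to 31.4%. Ly6g, the surface antigen by which mouse neutrophils are sorted, was seen in 72.5% to 91.4% of members. A UMI of Camp or Ngp was also found in 0% to 18.3% of T cells by hashtag group, cells that should lack both, at a median depth of 2443 to 4159 UMIs for cells outside the neutrophil gates. Elane, the azurophil elastase, had a UMI in 1.35% to 8.95% of members. Transcripts of other cells were present to different degrees: the B cell list summed to 196 to 4324 CPM by library, the T cell list to 21.6 to 72.7, the macrophage list to 2.30 to 312 and the microglia list to 76.4 to 112. The B cell gene Cd79a had a UMI in 1.18% to 9.46% of members by library and the macrophage gene C1qa in 0.617% to 11.3%. On the eosinophil list, Epx, the eosinophil peroxidase gene, had no UMI in any member, and Prg2, the major basic protein gene, stood at 0 to 69.4 CPM by library. The part of such transcripts in the member profiles was not tested, but 3516 of the 3835 members held fewer than 2 UMIs of lymphocyte genes.

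Placed between precursors and mature neutrophils, the members had the highest secondary granule sum of the 3 gates. These contrasts use the genes and cells of the gate, so they are given with no test. UMIs were pooled, and APP acute hashtag 7, a low-side group, gave 13196097 member UMIs, where the next largest group gave 3872356. That group held 18 of the 1373 mature cells. The part of side and hashtag group in the pooled levels was not tested. Summed over 8 libraries, Camp stood at 25290 CPM in members, 1155 in precursors and 367 in mature cells, Ltf at 11654, 80.0 and 132 CPM, and Ngp at 45915, 819 and 2106 CPM. Elane stood at 44.9 CPM in members and 8011 in precursors, and Mpo, the myeloperoxidase gene, at 11.1 and 8942 CPM. The 12 secondary granule genes together reached 131772 CPM in members, 6346 in precursors and 20579 in mature neutrophils. All 12 were above precursors in each of 8 libraries and 11 were above mature cells, where 12.3% and 3.58% of the 11621 genes described did the same.

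Outside the gate genes, the members stood above mature neutrophils most in Orm1, an acute-phase plasma protein gene (102 against 2.88 CPM, a log2 ratio of 3.13 after adding 10 CPM), in Olfm4, a granule glycoprotein of a neutrophil subset (463 against 50.1 CPM, 2.97) and in Cebpe, the transcription factor of the secondary granule stage (220 against 20.0 CPM, 2.94). Lta4h, the leukotriene A4 hydrolase gene, Serpinb1a, an inhibitor of elastase, AA467197, 4930438A08Rik, Zmpste24, Lbp and the ficolin gene Fcnb followed, at log2 ratios of 2.26 to 2.92. Each was higher in 8 of 8 libraries. Below mature neutrophils, the chemokine Ccl6 (103 against 1489 CPM, -3.73) and Il1b (383 against 4932 CPM, -3.65) led, with the inflammasome sensor Nlrp3, Clec4d, the cyclooxygenase Ptgs2, Atf3, Sirpb1b, Acod1, Jaml and Gm5150 at -2.98 to -2.70. Of 12 inflammatory mediators, 10 were lower than in mature cells in each library, where 11.8% of genes were, and the list summed to 2049 CPM in members and 12561 in mature cells. Of 15 mature neutrophil genes, 11 were lower. The pooled member levels of Il1b, Olfm4 and these lists weigh APP acute hashtag 7 most, as stated above.

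Against precursors the members stood higher in Retnlg, a resistin-like gene of late neutrophils (10057 against 61.7 CPM, log2 ratio 7.13), in Ly6g (849 against 3.03 CPM, 6.04), in Asprv1 and in the gelatinase Mmp9 (1120 against 7.38 CPM, 6.02). Lcn2 stood at 24901 against 600 CPM (5.35). Ifitm6, Mmp8, Cd177, G0s2 and Chil1 completed the leading 10, at 5.00 to 5.99. They stood lower in Ctsg, the azurophil cathepsin G (8.97 against 3283 CPM, -7.44), and in genes of growth and ribosome assembly such as Srm, C1qbp, Npm1, Mif and Phgdh, at -4.79 to -4.35, with Gm11505 at -5.97. Pebp1, Gstm1 and Lgals1 stood at -4.29 to -4.26. All 21 S phase genes were lower than in precursors in 8 of 8 libraries, where 50.6% of genes were, and they summed to 363 CPM against 3335. The G2 and M phase sum was 894 CPM in members, 2129 in precursors and 532 in mature cells. The NADPH oxidase and NET list, which holds Cybb, Ncf1 and Padi4, summed to 7670 CPM in members, 2062 in precursors and 5183 in mature cells, and 4 of its 7 genes were above mature cells in 8 of 8 libraries.

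**Figure D1:**
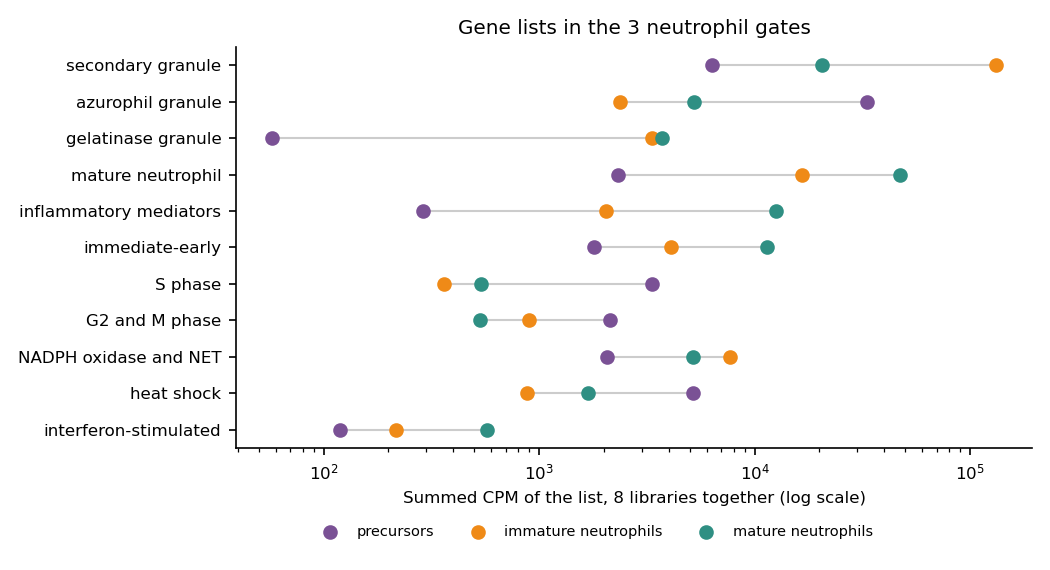
Summed CPM (log scale, x axis) of 11 gene lists in precursors, immature neutrophils and mature neutrophils, over 8 libraries together, each point 1 gate and the grey line its span. The secondary granule list peaked in the immature gate at 131772 CPM, the azurophil list in precursors at 33088 CPM, and the inflammatory list in mature cells at 12561 CPM.

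Within the members, the level of the gate genes ordered the other stage genes. The bins held 403 members with Camp, Ltf and Ngp at 1 to 2% of UMIs, 872 at 2 to 5%, 1474 at 5 to 10% and 1086 at 10% or more, and values describe the same cells that were binned. Cebpe stood at 43.3, 69.1, 189 and 360 CPM from the lowest to the highest bin. Lcn2 stood at 12622, 17511, 25504 and 29781 CPM, and the chitinase-like Chil3 at 582, 1445, 3758 and 5645 CPM. Both, and Cebpe, were higher in the top bin than in the lowest in 8 of 8 libraries.

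Genes of late stages ran the other way. Retnlg stood at 29138, 18893, 9133 and 3759 CPM and Il1b at 1310, 590, 356 and 164 CPM. Mmp8 (2264, 2073, 1473 and 587 CPM) and Mmp9 (1450, 1379, 1312 and 708 CPM), both placed on the gelatinase granule list for this work, were lower in the top bin as well. So was the chemokine receptor gene Cxcr2 (417, 372, 275 and 128 CPM), each of the 3 in 8 of 8 libraries. Cxcr4, the receptor that holds neutrophils in bone marrow, stood at 47.2 CPM in the lowest bin and 19.2 in the top bin. The proliferation marker Mki67 stood at 31.3, 42.4, 73.0 and 151 CPM, higher in the top bin in 7 of 8 libraries, and Top2a, the topoisomerase of dividing cells, at 18.8, 32.7, 46.7 and 98.2 CPM, higher in 8 of 8. Olfm4 was highest in the third bin, at 612 CPM against 163 in the lowest, and Ly6g lay between 809 and 977 CPM in all bins. In 6 of 8 libraries Olfm4 was higher in the top bin than in the lowest. The third bin held 54.6% of APP acute members, against 24.1% to 43.1% in the other libraries. Olfm4 was seen in 15.5% of APP acute members and in 4.20% to 17.6% in the other libraries. The part of that library in the third-bin level was not tested. Depth differed between the bins, with medians of 4000, 6171, 10433 and 11168 UMIs.

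**Figure D2:**
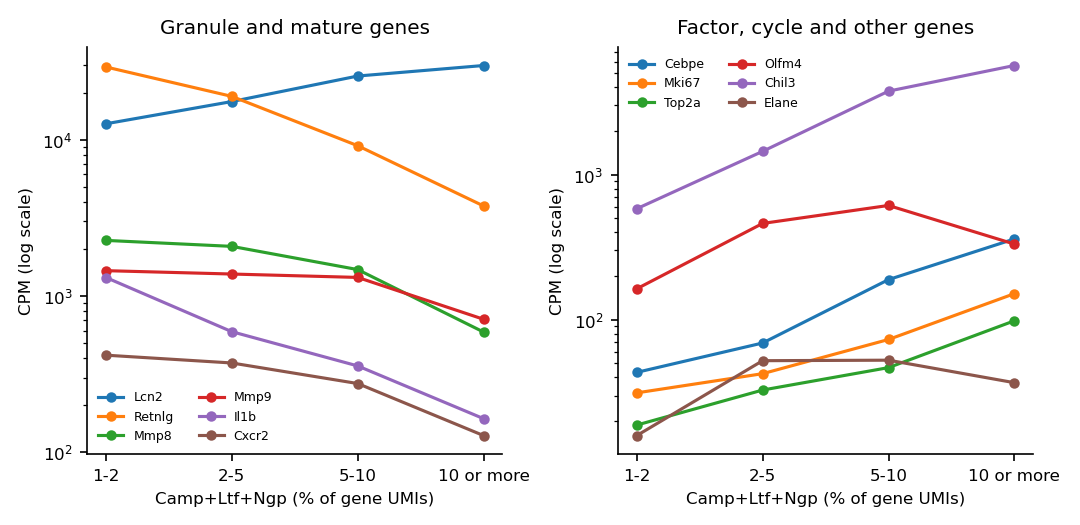
CPM (log scale, y axis) of 12 genes in the 4 bins of Camp, Ltf and Ngp share (x axis, % of gene UMIs), 8 libraries together; points are bin values joined by lines. Lcn2 and Cebpe stood higher in the top bin (29781 and 360 CPM), while Retnlg and Il1b stood lower (3759 and 164 CPM).

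The edge of the gate was gradual. The 120 cells just below the limit, in a band next to it, held Camp at 1470 CPM, Ltf at 583, Ngp at 6686 and Cebpe at 40.3 CPM. The 116 cells just above it, in a band of the same width, held 1715, 941, 8651 and 47.6 CPM.

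The share of members among all assigned cells asks whether gut inflammation or allergy changed how many such cells were recovered from the brain. It was 2.52% in the WT control library (95% Clopper-Pearson interval 2.16 to 2.92, which like the others covers counting error only), 1.65% in WT acute (1.30 to 2.07), 9.67% in WT chronic (8.89 to 10.5) and 18.1% in WT allergy (17.0 to 19.2). In APP mice it was 4.64% in control (4.15 to 5.17), 17.3% in acute (16.4 to 18.3), 5.64% in chronic (5.06 to 6.27) and 8.12% in allergy (7.47 to 8.81). With barcodes lacking an assigned hashtag included, WT allergy stood at 27.6% and APP acute at 19.3%.

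These library shares came from few hashtag groups. In APP acute, hashtag 7 held 948 members in 3218 cells (29.5%, 27.9 to 31.1), and hashtags 4 and 5 held 3.94% and 5.03%. The APP control groups stood at 1.84%, 5.59%, 4.68% and 6.39%, so the other APP acute groups lay inside the control range. In WT allergy, hashtags 4 and 5 stood at 19.7% and 20.1% and hashtag 7 at 1.13%. In WT chronic, hashtag 6 held 462 members in 3340 cells (13.8%), and hashtags 4, 5 and 7 stood at 3.23% (1 of 31 cells), 2.33% and 2.74%. The WT control groups stood at 4.72%, 4.16%, 0.109% (1 of 920 cells) and 0 of 2061 cells, where 3 counts, the floor set for a count of 0, would be 0.146% and the Clopper-Pearson upper limit is 0.179%. WT acute stood at 1.95% and 1.39%, with 0 of 108 and 0 of 54 cells in its smallest groups, with floors of 2.78% and 5.56% and upper limits of 3.36% and 6.60%. APP chronic groups stood at 5.13%, 6.77%, 4.64% and 6.42%, and APP allergy groups at 11.5%, 9.59%, 1.69% and 7.71%.

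**Figure D3:**
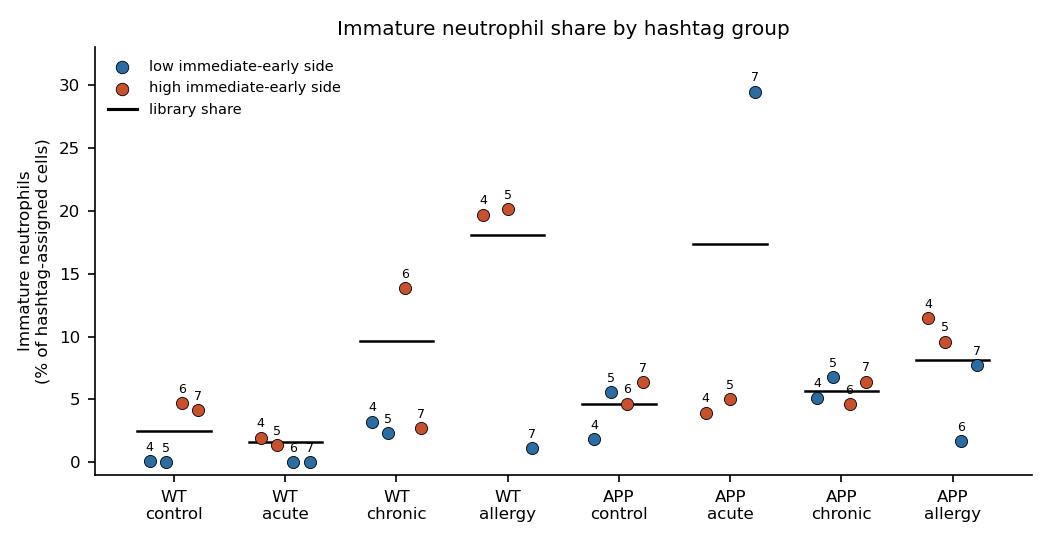
Members as a percentage of hashtag-assigned cells (y axis) in 30 hashtag groups of 8 libraries, numbered by hashtag and coloured by the side of the immediate-early gap in T cells; the black line is the library share. APP acute hashtag 7, at 29.5%, stands above all other groups, and the other APP acute groups, at 3.94% and 5.03%, lie within the APP control range.

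Over hashtag groups, no difference in this share passed the test, and APP acute and WT allergy, with 3 groups against 4, could not reach 0.05. For APP chronic there are more hashtag groups than animals given for that condition, so groups may share an animal, and p-values over them, edgeR's included, may be too small. For APP acute there are fewer hashtag groups than animals given, so a group may pool animals or an animal may be absent. The mean was 12.8% ± 14.4 (SD, n = 3) in APP acute and 4.62% ± 1.98 (SD, n = 4) in APP control, and the two-sided exact permutation test gave p = 0.514, where 0.0571 is the smallest p the design allows. Within sides of the immediate-early gap, the APP acute minus control difference was 25.7 percentage points on the low side, which rests on hashtag 7 alone, and -1.05 on the high side. With hashtags called at 10 times the second tag, the difference over all groups was -1.17 points. That rule kept 1797 of 3835 members but 36042 of 46314 assigned cells, so it removed members more than other cells. In APP acute hashtag 7 the median top hashtag count was 325 in members and 690 in all assigned cells. In APP allergy the difference was 0.987 points on the low side and 5.00 on the high side, where its groups (11.5% and 9.59%) lay above both controls (4.68% and 6.39%). APP chronic differed by 2.23 and -0.00335 points. In WT mice the high-side difference was 15.4 points in allergy (19.7% and 20.1% against 4.72% and 4.16%), 3.85 in chronic and -2.77 in acute, and the low-side difference 1.07, 2.72 and -0.0543. With 2 groups against 2 or fewer, these within-side differences were not tested. APP chronic (5.74% ± 1.01, n = 4 hashtag groups) gave an exact p = 0.457 and APP allergy (7.62% ± 4.24, n = 4) an exact p = 0.257. In WT mice the exact p was 0.343 for acute (0.834% ± 0.990, n = 4, against 2.25% ± 2.54, n = 4), 0.343 for chronic (5.53% ± 5.55, n = 4) and 0.171 for allergy (13.6% ± 10.8, n = 3), where 0.0571 is the smallest possible. APP control against WT control gave an exact p = 0.200. Benjamini-Hochberg adjusted over these 7 exact permutation tests, the values lay between 0.480 and 0.514.

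The share of members within the neutrophil lineage (precursors, members and mature cells together) asks how the stages were balanced, apart from how many neutrophils there were. It was computed in hashtag groups with at least 20 such cells. In APP mice the groups did not overlap between control and either colitis condition. APP control groups stood at 60.8%, 61.9%, 68.2% and 65.7%. APP acute groups stood at 70.8%, 76.7% and 87.2%, all above the controls. APP chronic groups stood at 51.7%, 51.1%, 51.3% and 48.8%, all below them. APP allergy groups stood at 63.7%, 47.7%, 46.2% and 57.4%, 3 of them below the controls.

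The mean difference from APP control (64.2% ± 3.42, n = 4) was 14.1 percentage points in acute (78.3% ± 8.30, n = 3; exact permutation p = 0.0571, the smallest possible), -13.4 in chronic (50.8% ± 1.31, n = 4 hashtag groups, which may share an animal; exact p = 0.0286, the smallest possible, and too small if they do) and -10.4 in allergy (53.8% ± 8.30, n = 4; exact p = 0.0857). None passed after Benjamini-Hochberg adjustment over 7 exact permutation tests (adjusted p = 0.200 for each). With this few hashtag groups per arm, no lineage comparison could have passed after adjustment, so that outcome decides nothing. The signs held on both sides of the immediate-early gap: 25.9 and 6.83 points on the low and high side in acute, -9.92 and -16.9 in chronic, and -9.59 and -11.2 in allergy. With hashtags called at 10 times the second tag, a rule that removed members more than other cells, the acute difference was -10.6 points.

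The other lineage cells are given as ranges, with no test. Mature neutrophils made up 0.559% to 1.54% of assigned cells in the APP acute groups, 0.890% to 1.78% in APP control, 0.763% to 5.17% in APP chronic and 1.60% to 5.83% in APP allergy. Precursors made up 0.0772% to 3.76% in APP acute, 0.297% to 1.81% in APP control, 1.29% to 4.02% in APP chronic and 0.376% to 4.68% in APP allergy. In WT mice the members made up 69.8% and 64.4% of lineage cells in control hashtags 6 and 7 but 0% in hashtag 5, whose 61 lineage cells were 60 precursors and 1 mature cell. They made up 45.8% and 27.8% in acute, 59.8% and 55.1% in chronic and 74.2% and 57.9% in allergy. The exact permutation p was 0.743 to 1.0 in the WT and genotype comparisons, all with an adjusted p of 1.0. The smallest p these permutation tests allowed was 0.2 in each WT comparison and 0.0571 between the genotypes.

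**Figure D4:**
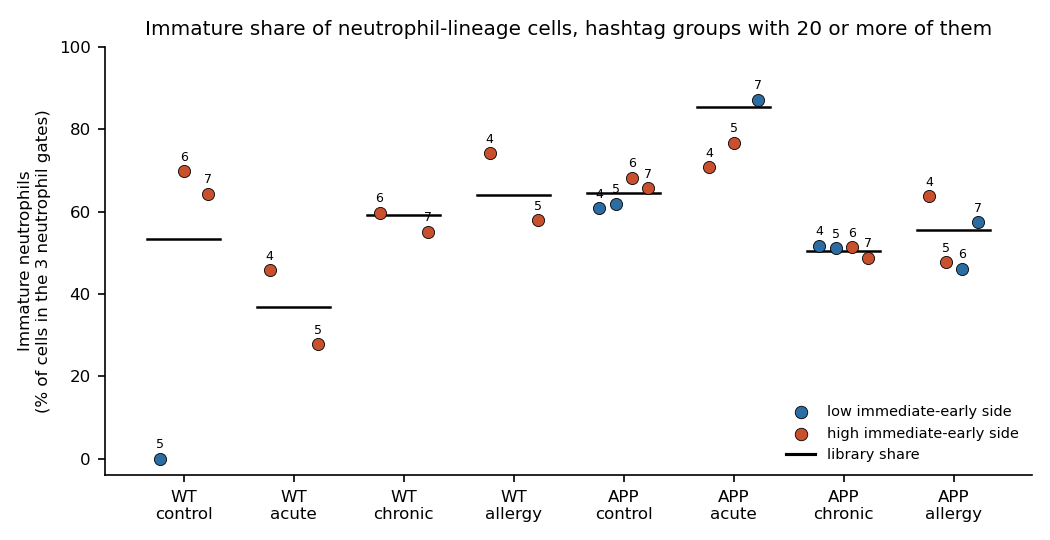
Members as a percentage of cells in the 3 neutrophil gates (y axis), in hashtag groups with 20 or more such cells, numbered by hashtag and coloured by the side of the immediate-early gap; the black line is the library value. APP acute groups (70.8% to 87.2%) lie above and APP chronic groups (48.8% to 51.7%) below the APP control groups (60.8% to 68.2%).

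Across hashtag groups with at least 200 assigned cells, 8 relations were computed, 4 on each side of the gap. On the high side (n = 16), the member share moved with the mature share (Pearson's r = 0.769, permutation p = 5.5e-04, adjusted 0.0044, and Spearman's rho = 0.585, permutation p = 0.0184, adjusted 0.0734). Without the 2 groups farthest from the median, r was 0.696 (permutation p = 0.00544) and rho 0.415. The relation of the member share with the precursor share had rho = 0.735 (permutation p = 0.00181, adjusted 0.0145) but r = 0.453 (permutation p = 0.0649, adjusted 0.173). On the low side (n = 11) none of the 4 relations passed: with the precursor share r was 0.554 (permutation p = 0.0582, adjusted 0.173) and with the mature share 0.110 (permutation p = 0.707, adjusted 0.825). Relations with the developing B cell list outside the neutrophil gates and with the T-cell immediate-early level passed on neither side, with r from -0.295 to 0.0603. All these shares have the same cells in their denominator. Groups of the same library were permuted as independent units, so these p-values may be too small.

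Expression was compared over the 22 hashtag groups with at least 20 members, in which UMIs of members were summed. Each group was scaled to its own total, so the number of members does not scale these levels. Deeper members weigh more in the sum, and depth differed between the bins of the gate genes. Median member depth ran from 1660 UMIs in WT allergy hashtag 5 to 13424 in APP acute hashtag 7. The part of depth in these levels was not tested. The immediate-early sum of members was 775 to 1802 CPM in the 6 low-side groups and 2409 to 7953 CPM in the 16 high-side groups, with no overlap. Il1b lay at 0.455 to 128 CPM in low-side groups and 83.6 to 1176 in high-side groups, and the chemokine gene Cxcl2 at 3.28 to 165 and 204 to 2325 CPM. The G2 and M phase sum was 18.3 to 678 CPM in low-side and 542 to 1860 CPM in high-side groups.

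Mmp9 ran the other way. On the low side it stood at 1774 and 1637 CPM in APP control, 1321 in APP acute hashtag 7, 1952 and 1983 in APP chronic and 1890 in APP allergy hashtag 7. On the high side it stood at 921 and 891 CPM in APP control, 962 and 816 in APP acute, 770 and 812 in APP chronic and 1032 and 754 in APP allergy. WT groups, all on the high side, stood at 1222 and 1387 CPM in control, 613 and 661 in acute, 970 and 703 in chronic and 944 and 790 in allergy. Within APP mice the sides did not overlap in Mmp9, and on the high side the treated groups lay on both sides of the control groups. Cebpe ranged from 160 to 405 CPM over all 22 groups, Ly6g from 505 to 1813, Cxcr2 from 72.9 to 473, Mki67 from 0 to 200 and Olfm4 from 18.3 to 885 CPM, and none of these, nor Mmp9, was called in any comparison of conditions over all groups. Within the high side, a comparison added after seeing the data, edgeR called Mmp9 lower in WT acute than in WT control (-1.15, SE 0.25, adjusted p = 0.0038), with 0.82 in other cells, and Cxcr2 lower as well (-1.95, SE 0.46, adjusted p = 0.0173), with -0.13 in other cells, and called Cxcr4 higher in WT chronic (44.0 and 69.0 against 16.7 and 14.6 CPM; 1.68, SE 0.37, adjusted p = 0.0042), with 0.51 in other cells. The WT groups behind these calls were the same as over all groups, and only the rest of the shared model differed. All 6 treated WT groups lay below both WT control groups in Mmp9. Mmp9 and Cxcr2 were also lower in the top bin of the gate genes in 8 of 8 libraries. That bin held 50.0% of members in the WT acute library and 31.2% in WT control, and its part in these calls was not tested.

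**Figure D5:**
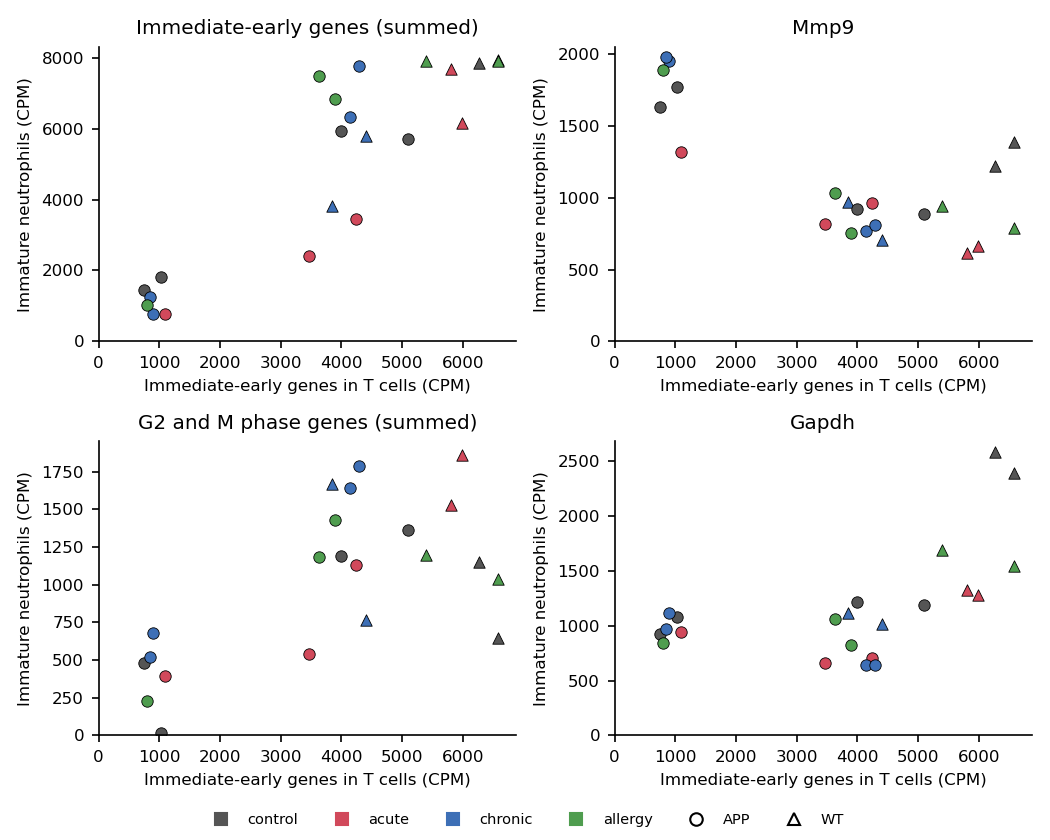
Level in members (y axis, CPM) of the immediate-early sum, Mmp9, the G2 and M phase sum and Gapdh against the immediate-early sum in T cells of the same hashtag group (x axis, CPM), 22 groups, coloured by treatment with circles for APP and triangles for WT. The 6 low-side groups hold immediate-early sums of 775 to 1802 CPM and the high-side groups 2409 to 7953 CPM, and Gapdh is highest in the WT control groups at 2388 and 2582 CPM.

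In APP acute against APP control, edgeR's quasi-likelihood test called 16 of 6282 genes (0.255%) at an adjusted p under 0.05, 11 higher (0.175%) and 5 lower (0.0796%). The risers were led by genes of red blood cells: the globins Hbb-bs, Hbb-bt and Hba-a1 and the carbonic anhydrases Car2 and Car1. Hbb-bs stood at 840, 363 and 304 CPM in the APP acute groups and at 0, 2.59, 0 and 1.41 CPM in control, 4879 against 3 UMIs. Of the 6 erythroid marker genes tested, 3 were called higher, against the 0.175% of all genes. Globin UMIs were found in 28 of the 1088 APP acute members, and 6661 of 6680 of them (99.7%) lay in 10 barcodes with 77 to 1158 each, whose median depth was 22861 UMIs against 13192 for all members. Without members holding 10 or more globin UMIs, no gene was called in either direction (627 at an unadjusted p under 0.05). Leaving out 1 hashtag group at a time gave 5 to 52 called genes, 52 of them without APP acute hashtag 7. In the same library, 69 cells outside the neutrophil gates held 10 or more globin UMIs.

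The 5 lower genes were Ndrg1, a stress-response gene, Hjurp, a centromere histone chaperone, the AP-1 factor Fosl2, 9830107B12Rik and the platelet and leukocyte substrate Plek. Fosl2 stood at 69.2, 42.2 and 36.9 CPM in APP acute groups and 128, 111, 105 and 101.5 in control (log2 fold change -1.23, SE 0.24, adjusted p = 0.0255 by edgeR). Plek stood at 75.0, 66.7 and 67.7 CPM against 210, 186, 127 and 113 (-1.13, SE 0.24, adjusted p = 0.0449 by edgeR). Ndrg1 stood at 9.62, 7.60 and 8.41 CPM against 27.4, 20.7, 26.0 and 21.1 (-1.45, SE 0.29, adjusted p = 0.0285 by edgeR). In cells outside the neutrophil gates of the same groups the log2 differences were -0.27 for Fosl2, 0.20 for Plek and 0.01 for Ndrg1. Without the 10 globin-rich barcodes the log2 fold changes were -1.20, -1.10 and -1.41 and the adjusted p by edgeR 0.0984, 0.156 and 0.0984. Without members holding 2 or more lymphocyte UMIs they were -0.98, -1.12 and -1.37, at 0.348, 0.199 and 0.200.

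For APP chronic and APP allergy against APP control, edgeR called 0 genes (0.0% of 6282) at an adjusted p under 0.05, with 193 and 106 at an unadjusted p under 0.05, where DESeq2 called 0 and 1. Camp, for example, stood at 24534, 22989, 44381 and 39708 CPM in APP chronic and 22287, 32609, 25349 and 20432 CPM in APP control. Lcn2 stood at 24015, 20175, 18608 and 18304 CPM against 13782, 15884, 27483 and 26535 CPM. In both genes the groups of the 2 conditions overlapped.

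The higher genes in comparisons with WT control were mostly short transcripts. Their low levels in WT control members are part of the same comparisons and no separate result. Against it, edgeR called 103 genes in WT acute (1.64%), 69 in WT chronic (1.1%), 13 in WT allergy (0.207%, all higher) and 53 in APP control (0.844%). The higher genes numbered 59 (0.939%) in WT acute, 61 (0.971%) in WT chronic and 48 (0.764%) in APP control, and the lower genes 44 (0.7%), 8 (0.127%) and 5 (0.0796%). Leaving out 1 hashtag group at a time, of either arm, left 14 to 25, 14 to 35, 0 to 4 and 16 to 48 genes called in the 4 comparisons. Rpl38, a ribosomal protein gene, rose in each, by 3.35, 3.18, 2.31 and 3.03 on the log2 scale (edgeR). It stood at 70.6 and 60.0 CPM in WT control, 645 and 746 in WT acute, 356 and 887 in WT chronic, 263 and 375 in WT allergy and 401 to 677 in APP control. The median transcript length of the higher genes was 595, 610, 449 and 546 bases, against 1904 for all genes tested, and that of the 44 lower genes of WT acute was 1617. In cells outside the neutrophil gates of the same groups, 55 of the 59, 59 of the 61, 13 of the 13 and 47 of the 48 higher genes had the same sign, and 44, 53, 13 and 44 differed by at least 0.5 on the log2 scale. Of all 6282 genes tested, 3867, 3844, 3621 and 3915 had the same sign, and 628, 797, 447 and 763 differed by that much. Rps28, Atp5k and Pet100, a ribosomal and 2 mitochondrial genes, were among the leading rises from WT control to APP control, at 2.77, 3.09 and 3.04, and Rpl37a, Rpl37, Rps21 and Pet100 among those to WT allergy, at 1.64 to 1.90.

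Of the neutrophil lists, 1 secondary granule gene of 12 was called higher in WT acute, 1 S100 gene of 7 higher in APP control, and 1 glycolysis gene of 11, Eno1, lower in WT chronic and in APP control. The S100 gene was S100a8, a gate gene and subunit of calprotectin, at 139470 to 153990 CPM in APP control against 58430 and 62724 in WT control (log2 fold change 1.35), with 0.53 in other cells. In WT acute it was Camp, at 42832 and 52160 CPM against 17503 and 15631 in WT control (log2 fold change 1.46), and Ltf stood at 9777 and 10295 against 13744 and 12404 CPM. Camp, Ltf and S100a8 chose the members, so these values are a description and support nothing. The leading rise of WT acute was outside the short transcripts: the kinase gene Stk39 rose by 3.51 (64.2 and 130 CPM against 8.73 and 6.48), with a log2 difference of -0.25 in other cells. Col5a1, Zfand4, Cog1, Twf1 and Casp8ap2, the leading falls, had 0 UMIs in the 74 WT acute members and 69, 41, 35, 33 and 28 in WT control. In WT chronic, the innate receptor Tlr2 stood at 37.9 and 26.3 CPM against 102 and 118 (-1.65, SE 0.36, adjusted p = 0.0238 by edgeR), with -1.41 in other cells, and the TNF receptor gene Tnfrsf1a at 135 and 125 against 332 and 425 CPM (-1.54, SE 0.35, adjusted p = 0.0320 by edgeR), with -0.82. Gm14548, Ftl1-ps1 and Gdap2 also fell, by 3.01, 2.62 and 1.46 on the log2 scale, and Ftl1-ps1 is annotated as a pseudogene copy, so its count is uncertain. From WT control to APP control the MAS-related receptor Mrgpra2b fell by 1.44, Gdap2 by 1.24, Tmem189 by 1.13, the enolase gene Eno1 by 1.06 and Cstb by 0.96 on the log2 scale, with Eno1 at -1.04 in other cells.

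Since the immediate-early sides cut through each library, the comparisons were also run within the high side alone, on 16 groups and 7638 genes. This was chosen after seeing the data, and each condition then holds 2 groups. All WT groups of the fit over all groups already lay on the high side, so comparisons among WT conditions kept the same groups. For them only the shared model changed, in the genes tested, the scaling and the estimate of spread, because the low-side APP groups were left out. In APP acute against APP control, 360 genes were called by edgeR (4.71%), 155 higher (2.03%) and 205 lower (2.68%). Of 10 immediate-early genes 6 were lower. Fos stood at 867 and 571 CPM in APP acute and 1850 and 1622 in control (-1.51, SE 0.22, adjusted p = 0.0001 by edgeR) and Junb at 440 to 621 against 1276 to 1388 CPM (-1.57, SE 0.26, adjusted p = 0.0008 by edgeR), and Nr4a1, Egr1, Ier2 and Zfp36 were the others. Of 11 inflammatory mediators, Cxcl2 (246 and 204 against 1002 and 1428 CPM), the cytokine Osm and Tnf were lower, and none was higher. Of 24 G2 and M phase genes, Kif11, Cenpe, Top2a and Tacc3 were lower. Cebpb, the emergency granulopoiesis factor, fell by 1.39 on the log2 scale (735 to 935 against 1809 to 1894 CPM, adjusted p = 0.0003 by edgeR). In other cells of these groups, 6 of the 6 immediate-early calls had the same sign, and 1 differed by at least 0.5. Of all 360 called genes, 280 had the same sign there and 74 differed by that much. The APP acute groups also held the highest B cell sums of all 22, at 6506 and 6435 CPM against 806 and 453 in the 2 controls, and the part of this in the differences was not tested. Leaving out 1 group at a time left 51 to 228 genes called, 51 of them without APP acute hashtag 5, and 2 to 5 of the immediate-early genes.

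In APP chronic against APP control on the high side, 217 genes were called (2.84%), 46 higher (0.602%) and 171 lower (2.24%). Of 11 glycolysis and hypoxia genes 7 were lower: the glucose transporter genes Slc2a1 (4.35 and 9.78 CPM against 45.2 and 26.1; -2.49, SE 0.46, adjusted p = 0.0029 by edgeR) and Slc2a3 (65.2 and 75.0 against 131 and 145; -1.25, SE 0.27, adjusted p = 0.0098 by edgeR), and Gapdh, Ldha, Pkm, Pgk1 and Aldoa, at -1.17 to -0.81. Gapdh stood at 637 and 644 CPM against 1211 and 1185, and reads of such genes can be shared with near-identical copies. In cells outside the neutrophil gates 6 of the 7 had the same sign and 0 differed by 0.5 or more, against 165 and 41 of all 217 called genes. Of 12 secondary granule genes 4 were lower too: Lcn2 (18608 and 18304 against 27483 and 26535 CPM), Hp, Cd177 and Anxa1, at -1.07 to -0.77, where Camp stood at 44381 and 39708 against 25349 and 20432 CPM. Lcn2 differed by -2.08 in other cells. The interferon-induced Ifitm2 fell by 2.51 (542 and 491 against 2216 and 2694 CPM), with -1.25 in other cells, and S100a6, the decoy receptor Il1r2 and the selectin ligand Selplg by 1.11, 1.42 and 1.43 on the log2 scale. The top bin of the gate genes held 36.1% of members in the APP chronic library and 22.5% in APP control, both sides together. In that bin Slc2a1, Ifitm2, S100a6, Il1r2 and Selplg were lower in 8 of 8 libraries. Ldha, Lcn2, Cd177 and Anxa1 were higher there in 8 of 8. The part of the bins in these calls was not tested. Leaving out 1 group at a time left 42 to 102 genes and 0 to 4 of the glycolysis genes called, 0 of them without APP chronic hashtag 6. On the low side, Slc2a1 stood at 21.3 and 18.2 CPM in APP chronic and 27.4 and 10.4 in control, and Slc2a3 at 230 and 263 against 238 and 145 CPM, with overlapping groups in both genes.

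In APP allergy against APP control on the high side, edgeR called 0 genes (0.0%; 459 at an unadjusted p under 0.05). Against WT control it called 830 genes in WT acute (10.9%), 957 in WT chronic (12.5%), 194 in WT allergy (2.54%) and 116 in APP control (1.52%). Higher genes made up 4.03%, 4.96%, 1.61% and 1.3% of those tested, and lower genes 6.83%, 7.57%, 0.93% and 0.223%. There 8 of the 11 glycolysis genes were lower in WT acute and 8 in WT chronic, against those 6.83% and 7.57% of all genes, and 0 in WT allergy. In other cells 4 of the 9 and 3 of the 9 glycolysis calls of either direction differed by at least 0.5 on the log2 scale. Of all calls in WT acute and WT chronic, 286 of 830 and 336 of 957 did so. Leaving out 1 group at a time left 327 to 508 genes and 4 to 6 of the glycolysis genes lower in WT acute, and 344 to 970 genes and 6 to 8 of the glycolysis genes in WT chronic, and left 12 to 147 genes called in WT allergy and 46 to 79 in APP control. Gapdh stood at 2582 and 2388 CPM in WT control, 1322 and 1283 in WT acute, 1114 and 1012 in WT chronic and 1692 and 1539 in WT allergy. APP control, at 1211 and 1185 CPM, also lay below WT control, and these comparisons share the WT control groups. The WT groups were the same as in the fit over all groups, which called 103, 69 and 13 genes in WT acute, chronic and allergy.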

How the data were processed

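Gene-by-barcode UMI counts and hashtag counts of 8 libraries were deposited by the authors as Cell Ranger matrices (version 6.1.2 per the labels, mm10), with no cell annotation. Barcodes with at least 500 gene UMIs, 200 genes, at most 5% mitochondrial UMIs and a top hashtag of at least 50 counts and 3 times the second were kept. No doublet caller was run. Members, gene lists and the split by immediate-early level were chosen with earlier results of these data known. Levels are CPM (UMIs of the summed cells scaled to a common total). Shares were compared over hashtag groups by exact two-sided permutation tests, and UMIs summed over the members of a hashtag group by edgeR 4.0.16 (R 4.3.3) with TMM scaling, filterByExpr and Benjamini-Hochberg adjustment over all genes tested, on groups with at least 20 members in 1 model of condition means. DESeq2 1.42.0 was an alternative. The scripts (Python 3.11.15, scipy 1.17.1) were tested on simulated data. Named genes are the 10 leading genes against each other gate with the same sign in 8 of 8 libraries, the 5 leading rises and falls of each comparison, list members with high levels, and Mmp9, Mki67, Ly6g, Il1b, Cebpe, Cxcr2, Cxcr4 and Olfm4. Genes named for the high-side comparisons and the gene sums by side were chosen after their values were seen. Transcript lengths came from GENCODE and promoters from RefSeq, both on GRCm38.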

Additional observations from a re-analysis of the deposited data

Results flagged for a closer look

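In WT chronic, hashtag 6 held a member share of 13.8%, far above the other 3 hashtag groups of its library (2.33% to 3.23%). It was the 1 outlier among 35 sets of hashtag groups tested, and chance gives about 1 in 20.

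The difference between treatment and control in members differed between APP and WT mice, by edgeR's test of the interaction with Benjamini-Hochberg adjustment, in 69 genes for acute colitis, 34 for chronic colitis and 13 for food allergy. The genes were led in each case by short transcripts such as Rpl38, Atp5k, Pet100 and Tomm7. This kind stood low in members and in other cells of the WT control library. That library enters all 3 tests, so the low levels in members are not a separate result.

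Among barcodes without an assigned hashtag, which enter no comparison of hashtag groups, 1381 met the rule for members, 867 of them in WT allergy and 300 in APP acute.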

How the results depend on the processing

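No paired analysis was possible because each condition is 1 library, and hashtag numbers are not stated to pair animals between libraries. Hashtag groups share their library, groups of few cells weigh as much as large ones, and the depth of members differs between libraries. Under other gates and filters 1797 to 4114 cells were members. Of 70 share results under such alternatives, 69 kept direction for the share of all cells and 67 for the share of the lineage. Some of these were shares over a whole library, with no test. For the lineage share no comparison could pass the threshold in the main setting. With hashtags called at 10 times the second tag, the APP acute minus control share was -1.17 percentage points. The lineage differences under that rule were -10.6 in APP acute, -12.1 in WT chronic and -0.797 in WT allergy. It kept 1797 of 3835 members but 36042 of 46314 assigned cells. Without the 2 farthest groups, r with the T-cell immediate-early level was 0.108 on the low side and -0.202 on the high side. Leaving out 1 hashtag group at a time, the share difference of APP acute ran from -0.14 to 12.6, and the lineage difference from -30.3 to 4.61 in WT acute, -9.63 to 25.3 in WT chronic, -1.004 to 33.9 in WT allergy and -2.92 to 32.0 between the controls.

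Counts of called genes, in the order APP acute, APP chronic, APP allergy, WT acute, WT chronic, WT allergy and APP control against WT control, moved to 236, 78, 61, 359, 350, 195 and 144 with no filter on low counts. With the immediate-early level as a covariate they were 136 in APP acute, 362, 412 and 46 in the WT comparisons and 123 between controls. DESeq2 called 37 in APP acute, 1 in APP allergy, 266, 189 and 51 in WT and 95 between controls. Without members with 2 or more lymphocyte UMIs the counts were 0 in APP acute, 53 in WT acute, 41 in WT chronic and 35 between controls. Alternatives added after seeing the data gave 0 in APP acute without globin-rich members and, on the high side alone, 360 and 217 in APP acute and chronic, 830, 957 and 194 in WT and 116 between controls. Leaving out 1 group at a time gave 5 to 52 in APP acute, 14 to 25 in WT acute, 14 to 35 in WT chronic, 0 to 4 in WT allergy and 16 to 48 between controls. In the WT comparisons the high-side run kept the same hashtag groups as the main setting. There only the genes tested, the scaling and the shared estimate of spread differed, and which of these moved the counts was not tested. The cause of the other moves was not tested. The leading rises and falls of each comparison (45 gene results, of which not every one could be tested in each alternative) kept direction wherever run, with 246 of 298 values still called, and 90 of 230 when 1 hashtag group was left out.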
